A study of Homo sapiens with 8 samples.

Results

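The mitochondrial ribosomal proteins were taken as every gene of the authors' deposited table whose symbol starts with MRPL (large subunit) or MRPS (small subunit), which gave 66 of 4616 genes, 42 MRPL and 24 MRPS. RefSeq lists 77 protein-coding symbols of these kinds, of which 65 have a row; the remaining 12 (7 MRPL and 5 MRPS) were not analysed here. The last of the 66, MRPS36, is named KGD4 in RefSeq and is known as a subunit of the α-ketoglutarate dehydrogenase complex. It was kept in the MRPS counts and medians, except in the grouping by ancestry and in an alternative that left it out. The table compares WM902B cells, a human melanoma line whose BRAF carries an activating mutation, that expressed a hairpin against the long non-coding RNA TINCR (shTINCR) with cells that expressed a scrambled hairpin (shSCR). All cells were at passage 18, carried a hairpin and were treated with cycloheximide, which arrests elongating ribosomes, at 100 µg/ml for 5 min. Of each there were 2 biological replicates, sequenced for ribosome footprints and for RNA, 8 libraries in all. The RNA libraries are titled as total RNA and characterised as polyA RNA. The labels do not say whether the cells are clones or give the sequence of a hairpin, and TINCR itself was not analysed here. Rows were present for 6 of 7 markers of the melanocyte lineage, 1 of 4 of fibroblasts (COL1A2) and 0 of 3 of keratinocytes.

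The mitochondrial ribosome translates the few mRNAs of the mitochondrial genome, which encode core subunits of the respiratory chain. Its ribosomal RNAs are made in the mitochondrion, whereas all its proteins are encoded in the nucleus, translated by cytosolic ribosomes and imported. Some of these proteins have a counterpart in bacterial ribosomes and others are specific to mitochondria. The measurement therefore concerns how efficiently cytosolic ribosomes translated the mRNAs of the other ribosome of the cell. The quantity is translational efficiency (TE), footprints over mRNA of the same gene, given by the authors as a log2 value in each condition. Because footprints and mRNA of a gene are counted against each other, gene length cancels to the extent that the same region was counted. The table has no value per library, so neither the spread between replicates nor the depth is known. The precision of a change is given below as a standard error (SE), worked back from the size of the change and its p-value under a normal statistic, and as the 95% interval made from it. In such bulk material, fewer cells with a change and a smaller change per cell cannot be told apart.

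The starts of the mRNAs are shown first, because the elements known to couple translation to growth signals lie there. The mRNAs of cytosolic ribosomal proteins typically begin with a C followed by a run of pyrimidines, the TOP motif, through which mTORC1 and LARP1 control their translation. A different element, TISU, lies around the start codon of mRNAs with a very short leader and directs initiation with little scanning. RefSeq starts (GRCh38.p14) were matched for 58 of the 66 members. A C followed by at least 4 pyrimidines opened 4 of them (6.90%), against 42 of 62 cytosolic ribosomal protein mRNAs (67.7%) and 257 of 3857 matched genes of the table (6.66%). The TISU letters, given in capitals in the next sequences and searched on the sense strand in the first 50 transcribed bases, were found in 8 of the 58 members (13.8%), in 0 of the 62 cytosolic ribosomal protein mRNAs and in 95 of the 3857 genes (2.46%). Searched on both strands in the whole 300-base window around the start, the same letters, which are also those of a YY1 site, were found in 9 members (15.5%), 119 genes of the table (3.09%) and 217 of 15843 protein-coding promoters (1.37%). The first transcribed base of the members was G in 29, A in 23 and C in 6.

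The 8 stretches that hold the TISU letters are printed below, 30 transcribed bases each, 5′ to 3′, with these letters in capitals. Those of MRPL50, MRPS18B and MRPL22 end with the letters, and the others start at the first transcribed base. The letters begin between base 7 and base 36 of the annotated transcript. Whether the ATG within them is the annotated start codon was not checked.
MRPL38: ggagggAAGATGGCGGCgccctggtggcga
MRPL46: gagaacgaAAGATGGCGGCgcccgtaaggc
MRPS10: gggaccggcAAGATGGCGGCgcggacagcg
MRPS18A: aggtttttgAAGATGGCGGCcctcaaggct
MRPS30: ggaatcgcgggcaAAGATGGCGGCggccag
MRPL50: aggcccgtggatctcatcgAAGATGGCGGC
MRPS18B: cctgtcctgggcgtacgtcAAGATGGCGGC
MRPL22: ttccgtagcgggagggcgaAAGATGGCGGC
In GRCh38.p14 these stretches lie at chr17:75904855-75904884 (MRPL38), chr15:88467359-88467388 (MRPL46), chr6:42217832-42217861 (MRPS10), chr6:43687762-43687791 (MRPS18A) and chr9:101398585-101398614 (MRPL50) on the minus strand. Those on the plus strand lie at chr5:44808947-44808976 (MRPS30), chr6:30617844-30617873 (MRPS18B) and chr5:154941089-154941118 (MRPL22).

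The 4 members that open with a C and a pyrimidine run are printed next with the run in capitals, followed by 2 cytosolic ribosomal protein mRNAs for comparison. The runs of the 4 members are 5 or 6 bases long, against 7 bases in RPL13A and 14 in RPS24. RPL13A had the lowest TE change of the measured cytosolic RPL genes and RPS24 that of the RPS genes. Neither stands for its group.
MRPS27: CCTTTTggtacgctccaagatggctgcctc
MRPL44: CTCTCgtgcaatggcgtccgggctggtaag
MRPL53: CTTCCggggcggaggtcaccatggcagctg
MRPS33: CTTCCgggacgagggcgcgtgggtgaggaa
RPL13A: CTTTTCCaagcggctgccgaagatggcgga
RPS24: CTCTTTTCCTCCTTggctgtctgaagatag
Those of MRPS27 (chr5:72320211-72320240), MRPL53 (chr2:74472651-74472680) and MRPS33 (chr7:141014923-141014952) lie on the minus strand, and those of MRPL44 (chr2:223957463-223957492), RPL13A (chr19:49487608-49487637) and RPS24 (chr10:78033863-78033892) on the plus strand.

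The remaining members whose TE changed are printed for their lack of either feature, each from its first transcribed base.
MRPL49: actgctgagcgaccgcgcggttccctgcta
MRPL12: gtcatttccggctcgaatgcccggcagccg
MRPS2: gagacctcgctctgccccgcgtcccagcca
MRPL28: agatcggcttccggttccggtgggctctga
They lie at chr11:65122183-65122212 (MRPL49), chr17:81703367-81703396 (MRPL12) and chr9:135500682-135500711 (MRPS2) on the plus strand and at chr16:370509-370538 (MRPL28) on the minus strand. A match is a description of these letters at the annotated start, and starts used in WM902B cells may differ.

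TE of most mitochondrial ribosomal proteins did not pass the authors' test. At their adjusted p below 0.05, 4 of 66 members rose in shTINCR cells (MRPL49, MRPL12, MRPL28 and MRPS2) and 1 fell (MRPS27), which is 7.58% of the members, against 16.4% of all genes tested. Upwards it was 6.06% of the members against 8.23% of all genes, and downwards 1.52% against 8.17%. The median log2 TE change of the members was 0.06 (1.05-fold), with a range of -0.32 to 0.53, and that of all genes was 0.02. A change above 0 was listed for 43 of the 66 members (65.2%), against 52.5% of all genes. At an unadjusted p below 0.05, 13 members (19.7%) passed, 10 upwards and 3 downwards, against 29.5% of all genes. The implied SE was much the same, with a median of 0.133 for the members and 0.129 for all genes. A change of at least 0.3 in either direction on the log2 scale was listed for 8 members (12.1%), against 22.03% of all genes.

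**Figure D1:**
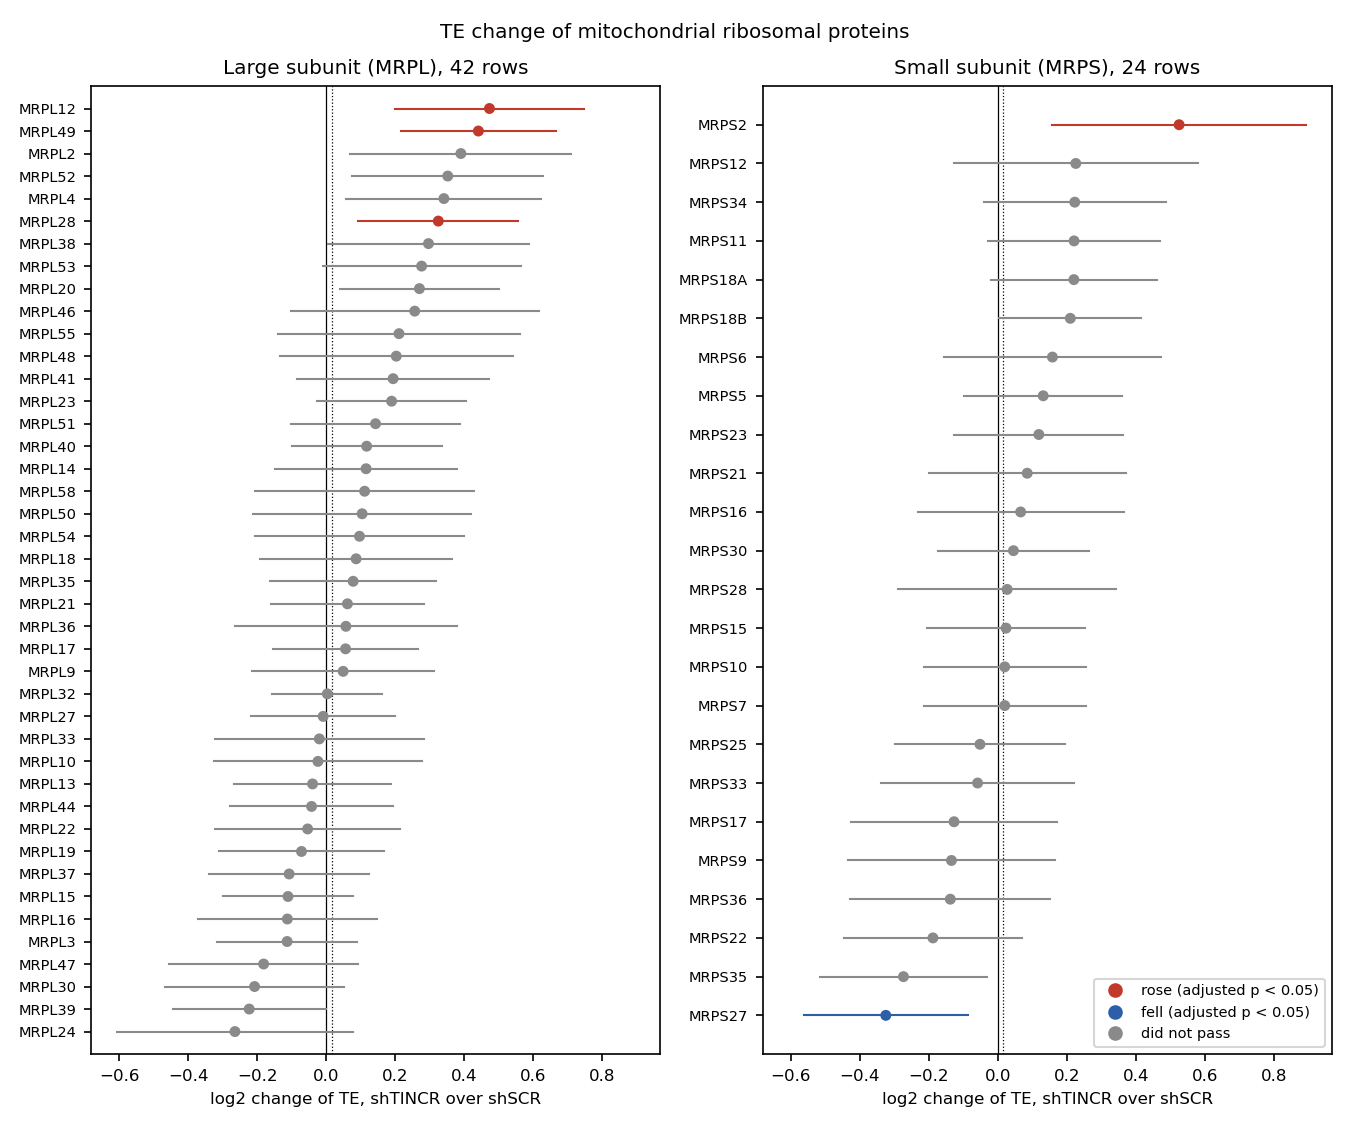
Log2 change of TE, shTINCR over shSCR (x axis), for each of 42 MRPL genes (left) and 24 MRPS genes (right), ordered by change; points are the authors' values, bars the 95% interval implied by change and p-value, the solid line is 0 and the dotted line the median of all genes. MRPL12, MRPL49, MRPL28 and MRPS2 rose and MRPS27 fell, and 55 of the 66 intervals include the median of all genes.

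In the large subunit 3 of 42 members rose (7.14%) and 0 fell, against 8.23% and 8.17% of all genes. The median log2 change was 0.08 (1.06-fold), with a range of -0.26 to 0.47. Without adjustment, the authors' p-values (from a tool that no source used here names) were below 0.05 for 8 MRPL genes upwards and 1 downwards, against 15.8% of all genes upwards and 13.7% downwards. MRPL49, a mitochondrion-specific protein of the large subunit (mL49), had a log2 TE of 0.02 in shTINCR cells, against -0.42 in shSCR cells, in the authors' deposited table. Its log2 change of 0.44 (1.36-fold, implied SE 0.114) had an adjusted p of 0.00249 in the authors' deposited table. In shTINCR cells its TE lay above 50.8% of all genes, against 31.7% in shSCR cells. MRPL49 has 2 named pseudogenes, which could take or lend reads, and its gene overlaps that of SYVN1, so its value is uncertain. FAU, a cytosolic ribosomal protein gene that starts within 1000 bases of MRPL49 on the opposite strand, had a log2 change of 0.04 (adjusted p = 0.817) according to the authors' deposited table.

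MRPL12 forms the flexible stalk that recruits translation factors, and it is also known to bind the mitochondrial RNA polymerase. Its log2 TE was 1.14 in shTINCR cells, against 0.67 in shSCR cells, a change of 0.47 (1.39-fold, implied SE 0.140, adjusted p = 0.00958) according to the authors' deposited table. MRPL10, which anchors the stalk, did not follow it, with 0.40 in shTINCR cells, against 0.43 in shSCR cells, and a change of -0.02 (adjusted p = 0.935) according to the authors' deposited table. The difference between both stalk proteins was not tested. MRPL28 (bL28m), known also as a melanoma antigen recognised by T cells, had a log2 TE of 1.32 in shTINCR cells, against 0.996 in shSCR cells, in the authors' deposited table. Its change of 0.32 (1.25-fold, implied SE 0.118) had an adjusted p of 0.0408, close to the threshold. Neither MRPL12 nor MRPL28 has a named pseudogene.

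Just outside the threshold lay 4 further MRPL genes, all with values above 0. MRPL52 had a log2 change of 0.35 (adjusted p = 0.068), MRPL2 of 0.39 (adjusted p = 0.0838), MRPL4 of 0.34 (adjusted p = 0.0874) and MRPL20 of 0.27 (adjusted p = 0.0987) according to the authors' deposited table. MRPL2 (uL2m) lies near the peptidyl transferase centre and MRPL4 (uL4m) reaches into the exit tunnel. With these 4, an adjusted p below 0.1 was reached upwards by 7 of 42 MRPL genes (16.7%), against 11.5% of all genes. Downwards 0 of 42 MRPL and 1 of 24 MRPS genes reached it, against 10.4% of all genes, and in either direction 22% of all genes did. At an adjusted p below 0.01, 2 MRPL genes (MRPL49 and MRPL12) and 0 MRPS genes passed, both upwards, against 7.82% of all genes (3.62% upwards and 4.2% downwards). The authors computed each p-value in 2 versions and deposited the larger. With the second version alone, 6 MRPL genes (MRPL49, MRPL12, MRPL28, MRPL2, MRPL4 and MRPL52) were called upwards and 0 downwards, with 20.3% of all genes called (11% upwards and 9.23% downwards). With the first version alone, the calls were the 3 of the large and the 2 of the small subunit, with 17.9% of all genes called (9.23% upwards and 8.71% downwards).

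The lowest value in the large subunit was that of MRPL24 (uL24m), a protein of the exit tunnel ring, at a log2 change of -0.26 (implied SE 0.174, adjusted p = 0.312) according to the authors' deposited table. MRPL39 (mL39) had -0.22 (adjusted p = 0.164) and MRPL30 (uL30m) -0.21 (adjusted p = 0.290) according to the authors' deposited table. None of these passed. Among the 5 measured proteins of the exit tunnel ring (MRPL17, MRPL22, MRPL23, MRPL24 and MRPL47) the changes ran from -0.26 to 0.19 with a median of -0.05, and 0 passed. For the central protuberance, which faces the head of the small subunit, 9 measured proteins were listed here. They were MRPL18, MRPL27, MRPL33, MRPL35, MRPL38, MRPL40, MRPL46, MRPL48 and MRPL52, and the list may not be complete. Of these 9, 7 had a change above 0 and 0 passed, with a median of 0.12 and a range of -0.02 to 0.35. Among all genes 52.5% had a change above 0 and 16.4% passed. With so few genes, the counts do not set either site apart. MRPL38 was next to MRPL52 there, at 0.30 (adjusted p = 0.157) according to the authors' deposited table. MRPL58, a peptidyl-tRNA hydrolase that became part of the ribosome, had a change of 0.11 (adjusted p = 0.686) according to the authors' deposited table.

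In the small subunit 1 of 24 members rose and 1 fell (4.17% each), against 8.23% and 8.17% of all genes. The median log2 change was 0.04 (1.03-fold), with a range of -0.32 to 0.53. MRPS2 (uS2m), a protein of the small subunit with a bacterial counterpart, had the largest change of all 66 members. Its log2 TE was 1.59 in shTINCR cells, against 1.06 in shSCR cells, a change of 0.53 (1.44-fold, implied SE 0.188, adjusted p = 0.0373) according to the authors' deposited table. Its implied SE was also the largest among the MRPS genes, and the 95% interval ran from 0.16 to 0.89. MRPS27 (mS27), a mitochondrion-specific protein with pentatricopeptide repeats, had a log2 TE of -0.58 in shTINCR cells, against -0.26 in shSCR cells, in the authors' deposited table. Its change of -0.32 (0.798-fold, implied SE 0.122) passed narrowly, with an adjusted p of 0.0474. It is the member printed above with the longest pyrimidine run of the 4. A relation between run length and TE change was not tested.

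MRPS35 (mS35) had the next lowest change after MRPS27, at -0.27 (adjusted p = 0.112), followed by MRPS22 (mS22) at -0.19 (adjusted p = 0.347) according to the authors' deposited table. On the other side, MRPS12 (uS12m), which lies at the decoding site and governs accuracy, had 0.23 (adjusted p = 0.419) according to the authors' deposited table. MRPS34 stood at 0.22 (adjusted p = 0.258), MRPS11 at 0.22 (adjusted p = 0.232) and MRPS18B at 0.21 (adjusted p = 0.157) according to the authors' deposited table. None of these 6 passed. MRPS36, which is not a ribosomal protein by its RefSeq name, had a change of -0.14 (adjusted p = 0.561) according to the authors' deposited table. At an unadjusted p below 0.05, 4 MRPS genes (16.7%) passed (MRPS2, MRPS18B, MRPS27 and MRPS35), 2 in each direction. Of all genes 29.5% passed, 15.8% upwards and 13.7% downwards.

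Set beside each other, the TE changes of the subunits overlapped. The median of the MRPL genes exceeded that of the MRPS genes by 0.05 on the log2 scale. All 42 MRPL genes lay within the range of the MRPS genes, and 21 of 24 MRPS genes within that of the MRPL genes. Above 0 lay 27 of 42 MRPL genes (64.3%) and 16 of 24 MRPS genes (66.7%). No test was made over members, which are not replicates of a condition. Among genes with an implied SE no larger than the median of all genes, 18 MRPL and 12 MRPS, the difference of the medians was -0.0049, so that its sign turned. Symbols do not always give the subunit: MRPS30 (mL65) and MRPS18A (mL66) sit in the large subunit. Their log2 changes were 0.05 (adjusted p = 0.827) and 0.22 (adjusted p = 0.214) according to the authors' deposited table, and with them in the large subunit the difference of the medians was 0.06.

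The subunits stood further apart in the level of TE than in its change. The median log2 TE of the MRPL genes was 0.71 in shTINCR and 0.68 in shSCR cells, and that of the MRPS genes 0.39 in shTINCR and 0.30 in shSCR cells. MRPL exceeded MRPS by 0.33 in shTINCR and by 0.38 in shSCR cells, with an SD across genes of 0.593 (MRPL) and 0.623 (MRPS) in shSCR cells, so the levels of the subunits overlapped. The median of all genes was 0.0019 in shTINCR and 0.0078 in shSCR cells, and 54 of the 66 members lay above it in each condition. Above the upper quartile of all genes by TE in shSCR cells lay 26 of 42 MRPL and 9 of 24 MRPS genes, and below the lower quartile 1 MRPL and 2 MRPS genes. The MRPS levels include MRPS36, MRPS30 and MRPS18A. No pseudogene is named for 24 of 42 MRPL and 8 of 24 MRPS genes. The 32 members without a named pseudogene had a median log2 TE of 0.83 in shTINCR and 0.74 in shSCR cells. The 34 with a named pseudogene had 0.42 in shTINCR and 0.30 in shSCR cells. Whether this bears on the gap between the subunits was not tested.

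The order of the members was much the same in both conditions, with a Spearman rho of 0.953 and a Pearson r of 0.960 across the 66 genes, which share their libraries. At the top, MRPL2 had a log2 TE of 1.99 in shTINCR cells, against 1.60 in shSCR cells, in the authors' deposited table. MRPL4 had 1.83 in shTINCR cells, against 1.48 in shSCR cells, and MRPL22 had 1.67 in shTINCR cells, against 1.72 in shSCR cells, in the authors' deposited table. Among the MRPS genes, MRPS36 had the highest level in shSCR cells and MRPS2 in shTINCR cells. MRPS36 had 1.20 in shTINCR cells, against 1.34 in shSCR cells, in the authors' deposited table. MRPS2 was next in shSCR cells and MRPS9 came after it, with 0.87 in shTINCR cells, against 1.01 in shSCR cells, in the authors' deposited table. At the bottom lay MRPS16, with -1.50 in shTINCR cells, against -1.56 in shSCR cells, and MRPL51, with -0.87 in shTINCR cells, against -1.01 in shSCR cells, in the authors' deposited table. MRPS12 had -0.38 in shTINCR cells, against -0.60 in shSCR cells, and MRPS10 had -0.39 in shTINCR cells, against -0.41 in shSCR cells, in the authors' deposited table. The lowest MRPL gene in shSCR cells after MRPL51 was MRPL55 (bL31m), with -0.26 in shTINCR cells, against -0.46 in shSCR cells, in the authors' deposited table. The level in shSCR cells and the change were only weakly related across members (Spearman rho 0.105, Pearson r 0.103, n = 66), and no relation is read from this.

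**Figure D2:**
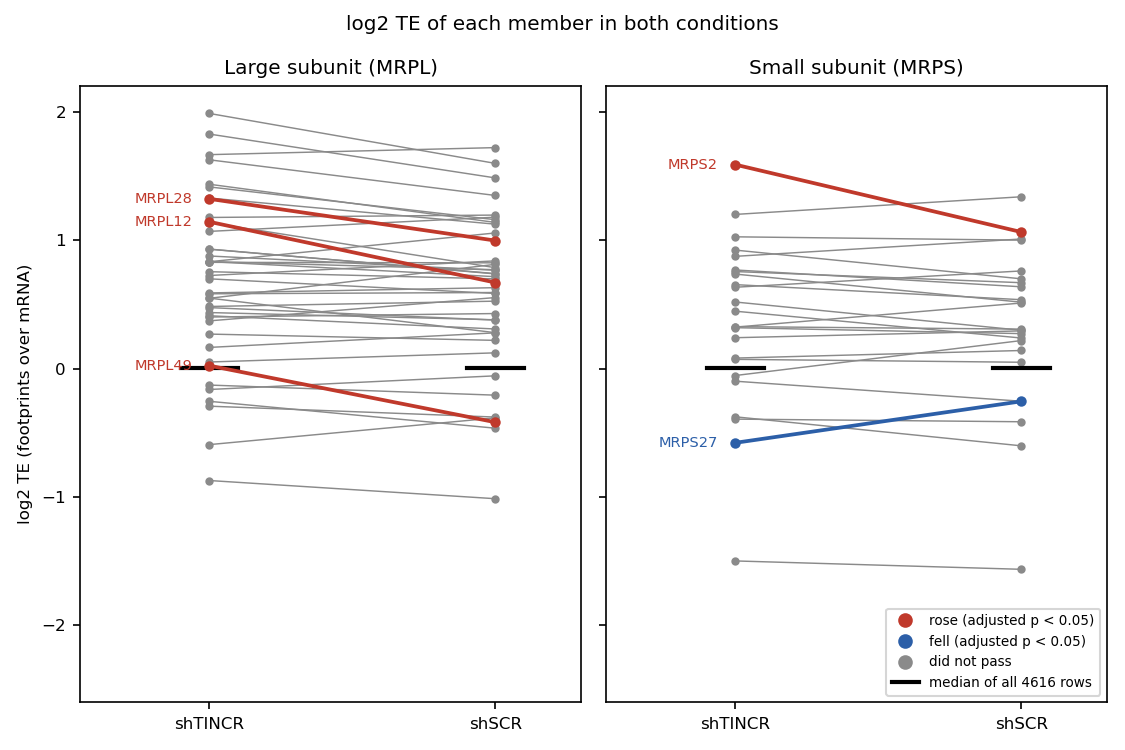
Log2 TE (y axis) of each MRPL gene (left panel) and MRPS gene (right panel) in shTINCR and shSCR cells, with lines joining the values of a gene and black bars at the median of all 4616 genes. Most members lie above the black bars in both conditions, and the 4 genes that rose and the 1 that fell are labelled.

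Grouped by ancestry, the mitochondrion-specific proteins of the large subunit had the highest median change. Of 15 such MRPL genes 12 had a change above 0 and 1 (MRPL49) rose, with a median of 0.14, whereas of 27 MRPL genes with a bacterial counterpart 15 had a change above 0 and 2 (MRPL12 and MRPL28) rose, with a median of 0.05. In the MRPS genes the order was the other way round. Of 13 with a bacterial counterpart 11 had a change above 0 and 1 (MRPS2) rose, with a median of 0.07, and of 10 specific to mitochondria 5 had a change above 0 and 1 (MRPS27) fell, with a median of -0.0035. These 10 include MRPS30 and MRPS18A, which sit in the large subunit. MRPS18A (mL66) and MRPS18B (mS40) were classed by these RefSeq names, although RefSeq also lists S18 names for both. Among all genes 8.23% rose, 8.17% fell and 52.5% had a change above 0. The counts by ancestry are descriptions and were not tested against each other.

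By the start of the mRNA, the 8 members with TISU letters had a median log2 change of 0.16, with 7 above 0 and 0 past the threshold. They ran from -0.05 (MRPL22) to 0.30 (MRPL38) in the authors' deposited table. All 95 matched genes of the table with these letters, the 8 members included, had a median of 0.04, against 0.01 for the 3762 without them. The 4 members with a pyrimidine start had a median of -0.05. Of these, MRPS27 fell, MRPS33 had -0.06 (adjusted p = 0.824), MRPL44 had -0.04 (adjusted p = 0.851) and MRPL53 had 0.28 (adjusted p = 0.188) according to the authors' deposited table. The 46 members with neither feature had a median of 0.08, with 30 above 0, and include the 4 that rose. The ETS letters CCGGAAG, searched on both strands of the 300-base window, were found in 25 of 58 members (43.1%) and 21 of 62 cytosolic RPL and RPS genes (33.9%). They were found in 23.7% of the table's matched genes and 14.2% of all protein-coding promoters. The 25 members with them had a median change of 0.11 and 1 call, and the 33 without had a median of 0.05 and 4 calls. The letters CCAAT, searched in the same way, were found in 18 members (31.0%) and 21 of 62 cytosolic RPL and RPS genes (33.9%). They were found in 39.1% of the table's matched genes and 36.4% of all protein-coding promoters. The 18 members with them had a median change of 0.01 and 1 call, and the 40 without had a median of 0.11 and 4 calls. Of all genes 16.4% were called. Calls and changes by ETS or CCAAT letters were not counted over the table. Members with and without these letters were not tested against each other.

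**Figure D3:**
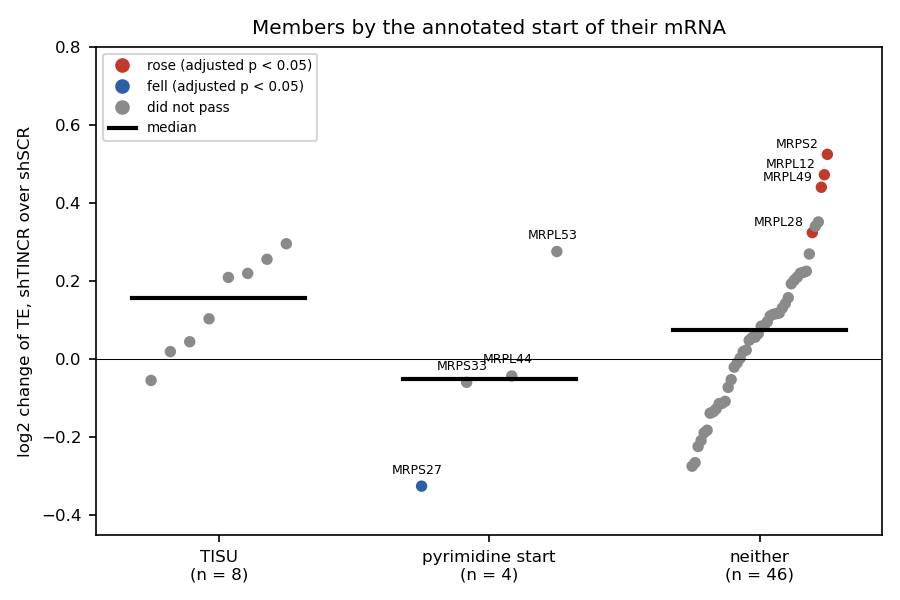
Log2 change of TE, shTINCR over shSCR (y axis), of the 58 members with a RefSeq start, grouped by TISU letters (8), a C followed by at least 4 pyrimidines (4) or neither (46); points are genes, sorted by change within a group, and black bars are medians. The medians are 0.16, -0.05 and 0.08, and the ranges overlap.

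The cytosolic ribosomal proteins and the nuclear-encoded respiratory chain are the groups most like the members in function. Of 77 cytosolic RPL and RPS genes 39 fell (50.6%) and 3 rose (3.90%), against 8.17% and 8.23% of all genes. The median log2 change of these 77 was -0.22. Of 66 mitochondrial ribosomal proteins 1 fell (1.52%). In 41 of the 66 (27 MRPL and 14 MRPS) the whole implied 95% interval lay above the median of the cytosolic genes. How many of all genes have such an interval was not counted, so the count does not set the members apart. The median change of all genes, 0.02, also lay above the cytosolic median. Cytosolic values were more precise, with a median implied SE of 0.086. RPL13A, printed above, had a log2 TE of 1.48 in shTINCR cells, against 2.45 in shSCR cells (change -0.98), in the authors' deposited table. RPS24 had -0.50 in shTINCR cells, against 0.20 in shSCR cells (change -0.70), in the authors' deposited table. These are the lowest changes of the cytosolic RPL and RPS genes, whose medians were -0.18 (RPL) and -0.25 (RPS). Of 76 respiratory chain genes 6 rose (7.89%) and 2 fell (2.63%), against 8.23% and 8.17% of all genes. The median change of the respiratory chain genes was 0.0031. Median log2 TE of the respiratory chain genes was 0.85 in shTINCR and 0.81 in shSCR cells, above that of either mitochondrial ribosomal subunit. No test between these groups was made.

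**Figure D4:**
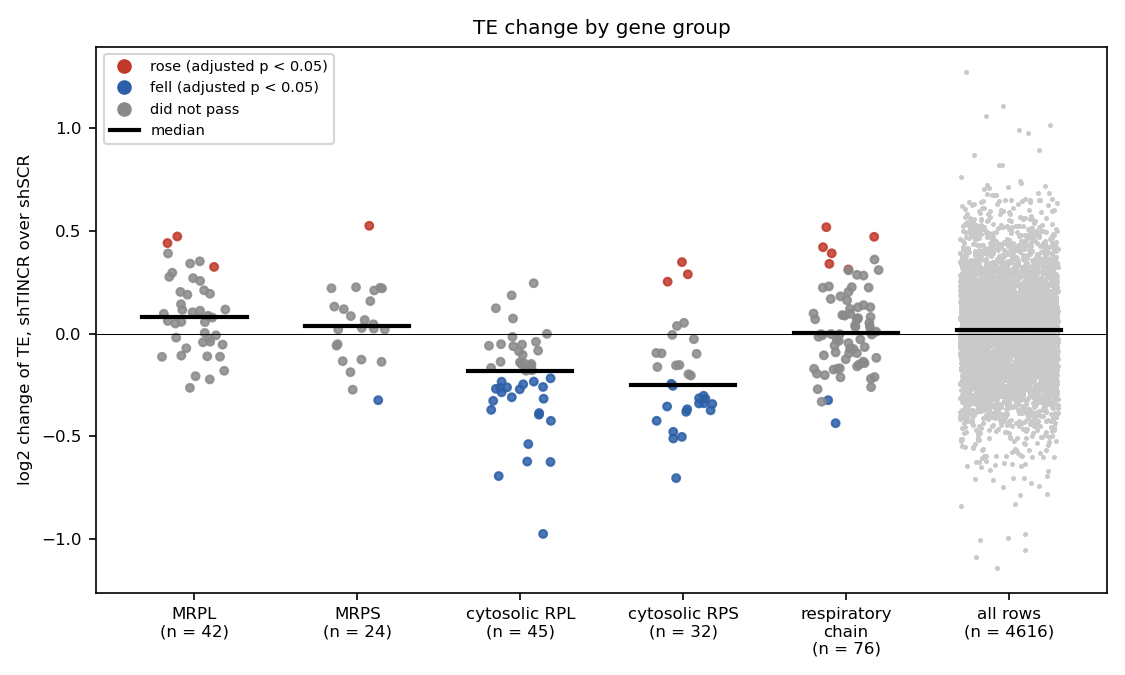
Log2 change of TE, shTINCR over shSCR (y axis), of single genes in 6 groups, with black bars at the medians and colours for genes that rose or fell in the authors' test (not coloured for all genes). MRPL and MRPS genes lie around 0.08 and 0.04, cytosolic RPL and RPS genes around -0.18 and -0.25.

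Further proteins of the same ribosome carry other symbols. Of 5 measured here 2 rose (40%) and 0 fell, against 8.23% and 8.17% of all genes. The share rests on few genes. GADD45GIP1 (mL64) had a log2 TE of 1.38 in shTINCR cells, against 0.96 in shSCR cells, a change of 0.43 (1.34-fold, implied SE 0.120, adjusted p = 0.00613) according to the authors' deposited table. AURKAIP1 (mS38) had 0.59 in shTINCR cells, against 0.27 in shSCR cells, a change of 0.32 (1.25-fold, implied SE 0.101, adjusted p = 0.0165) according to the authors' deposited table. CHCHD1 (mS37) had a change of 0.35 (adjusted p = 0.203), PTCD3 (mS39) of -0.23 (adjusted p = 0.239) and DAP3 (mS29) of -0.06 (adjusted p = 0.768) according to the authors' deposited table.

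Among factors that serve this ribosome, 0 of 6 measured translation factors passed, against 16.4% of all genes. Without adjustment of the authors' p-values 0 reached 0.05, against 29.5% of all genes. The translocase GFM1 had -0.22 on the log2 scale (adjusted p = 0.312) and MTFMT, which formylates the initiator tRNA, had 0.13 (adjusted p = 0.683) according to the authors' deposited table. Of 20 measured assembly and rRNA modification factors 2 rose (10%) and 0 fell, against 8.23% and 8.17% of all genes. Their median was 0.02. MPV17L2, an inner membrane protein needed for assembly, rose by 0.54 (adjusted p = 0.0406) and TBRG4, an RNA-binding protein of the FASTK family, by 0.30 (adjusted p = 0.035) according to the authors' deposited table. TBRG4 was put in this list by choice and could also be counted in the next list, among the genes for mitochondrial RNA. Of 12 measured genes for maintenance of mitochondrial DNA and RNA 1 fell (8.33%) and 0 rose, against 8.17% and 8.23% of all genes. Their median was -0.14. The gene that fell was LRPPRC, which stabilises mitochondrial mRNAs, with a log2 TE of 0.0068 in shTINCR cells, against 0.46 in shSCR cells (change -0.45, adjusted p = 1.74e-05) according to the authors' deposited table.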

How the data were processed

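Footprints and RNA of shTINCR and shSCR WM902B cells were compared by the authors in 1 table of 4616 genes. Per the file headers, log2 columns give TE in shTINCR and in shSCR cells and its change, computed by 2 routes of which 1 was kept. The deposited p-value columns give 1 p-value per route, the kept p-value and its adjusted form. Build hg19, DESeq 1.10.1, HTSeq 0.5.3p9, TopHat2 2.0.8, CASAVA 1.9, Bowtie2 2.1.0 and SAMtools 0.1.18 are named without roles, per the submitters' processing notes. The tool of the TE test, the filter on low values and the depth appear in no source used here.

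Computed here were counts, medians, implied SEs and their intervals, Benjamini-Hochberg adjustment of each p-value version over all rows, and sequence matches (Python 3.11.15, pandas 2.3.3, numpy 2.4.6, scipy 1.17.1, matplotlib 3.10.9). The adjustment and calling steps were tested on simulated data. Sequences, symbols, pseudogenes and neighbours came from RefSeq (GRCh38.p14). The members and lists were chosen with earlier results of these data known. Named were all members past an adjusted p of 0.05 and, per subunit, the 3 next smallest adjusted p-values and the 3 highest and lowest changes and shSCR levels, members of structural groups, MRPL12, MRPS12, MRPS30 and MRPS18A, and per list the genes that passed or else the 2 smallest p-values. Other genes named with values (MRPL20, MRPL58, MRPS11, members by start sequence, neighbours, RPL13A, RPS24, CHCHD1, PTCD3 and DAP3) were chosen after their values were seen. A planned comparison with protein length was not made.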

Additional observations from a re-analysis of the deposited data

How the results depend on the processing

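The count of MRPL genes called was 3 and became 6 with the second version of the p-value and 7 at an adjusted p below 0.1, and it was 2 to 4 under the other 8 alternatives tried. The count of MRPS genes called was 2 and became 0 at an adjusted p below 0.01 and 1 among genes with an implied SE no larger than the median of all genes, and it was 2 to 3 under the other 9. Without adjustment, the authors' p-values, from a tool that no source used here names, were below 0.05 for 4 MRPS genes (16.7%). The share of all genes was 29.5%. The difference of the medians, MRPL minus MRPS, was 0.05 and turned to -0.0049 among the more precise genes, where fewer genes were left; under the other 8 alternatives it was 0.04 to 0.06. The MRPL median was 0.03 to 0.09 and the MRPS median 0.03 to 0.05 under all alternatives tried. Leaving out MRPS36 was added after seeing the data. No row was non-coding by RefSeq. No paired analysis was possible because the table holds no value per library, and for the same reason no replicate could be left out. Depth is unknown.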

Other observations

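Over the table, genes with a start of a C and at least 4 pyrimidines had a lower median TE change than genes without it. Of 215 matched genes with such a start that are not cytosolic RPL or RPS genes, 4 of them members and MRPS27 among those that fell, 46 fell (21.4%) and 10 rose, with a median log2 change of -0.09. Of the 3580 matched genes without it, the other 54 members included, 239 fell (6.68%) and 296 rose, with a median of 0.03. Of the 42 cytosolic RPL and RPS genes with such a start 22 fell, and of the 20 without it 10 fell. The 95 matched genes with TISU letters had a median log2 TE of 0.35 in shTINCR and 0.36 in shSCR cells, and 7 of them rose and 4 fell.

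Head-to-head neighbours within 1000 bases were found for 16 of the 58 members with a RefSeq start. MRPL46 and MRPS11 are neighbours of each other. Their log2 changes were 0.26 (adjusted p = 0.360) and 0.22 (adjusted p = 0.232) in the authors' deposited table, and neither passed. TCP1, neighbour of MRPL18, had a change of -0.45 (adjusted p = 1.64e-05), against 0.09 for MRPL18 (adjusted p = 0.727), and NCAPD2, neighbour of MRPL51, one of -0.32 (adjusted p = 0.0161), against 0.14 for MRPL51 (adjusted p = 0.467), in the authors' deposited table. NDUFS6, a complex I gene whose span overlaps that of MRPL36, had a change of 0.52 (adjusted p = 0.000906), against 0.06 for MRPL36 (adjusted p = 0.855), according to the authors' deposited table. Of the 66 members 14 overlap another protein-coding gene and 34 have a named pseudogene, and whether shared reads affect their values was not tested.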
